A study of Homo sapiens with 12 samples.

Results

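The 40 genes followed here are those of the cornified envelope and of late keratinocyte differentiation, chosen by name from the array's annotation and read by 1 probe set each (a group of short probes summarised as 1 value), the one with the highest mean signal over the 12 arrays. All 40 were found among the 19775 genes tested. They and the gene lists used further below were chosen with earlier results of these data known. Their counts beside the share of all genes are therefore descriptions and not independent support. The cells were MCF-10A, a non-tumorigenic line from human breast epithelium, taken 48 h after infection with retrovirus, in 4 groups of 3 biological replicates. The groups received the empty vector, wild-type full-length NOTCH1, NOTCH1 carrying both L1601P and ΔP, or the free intracellular domain, NICD. The L1601P change sits in the heterodimerization domain, where the receptor's subunits meet, and ΔP is a loss of the PEST sequence through which the released domain is degraded. The sample descriptions add gfp to the name of the NICD samples, without saying whether this is a fused tag or a reporter. The sources used here give neither the promoter of the retrovirus nor the share of cells infected nor any selection, and all groups share the 1 cell line. Nothing states that replicates came from separate infections, so the p-values cover the spread among these samples only, which may be technical.

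The cornified envelope is the protein shell that replaces the plasma membrane of keratinocytes at the end of their life. Transglutaminases cross-link small precursor proteins (involucrin, the small proline-rich SPRR proteins, the late cornified envelope LCE proteins, periplakin and envoplakin) under the membrane, ceramides are attached outside, and protease inhibitors, deiminases and proteases adjust the timing. Many of the precursor genes lie side by side on chromosome 1 in the epidermal differentiation complex. Notch signalling is known in epidermis for driving cells out of the basal layer into differentiation. In the canonical pathway the intracellular domain binds the DNA-binding protein RBPJ, and the AP-1 factors are long-known regulators of several of these genes.

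The 250 bases before the transcription start are shown for 6 members that the results turn on: IVL, SPRR2B and SBSN, which rose with NICD, SPRR1A and SPRR1B, which fell, and SPRR3, whose probe sets disagreed. They come from RefSeq (GRCh38.p14), 5′ to 3′ on the gene's strand, and capitals mark the letters TGGGAA or their reverse complement (a core of the RBPJ motif) and TGANTCA (the AP-1 motif, the same on both strands).
IVL: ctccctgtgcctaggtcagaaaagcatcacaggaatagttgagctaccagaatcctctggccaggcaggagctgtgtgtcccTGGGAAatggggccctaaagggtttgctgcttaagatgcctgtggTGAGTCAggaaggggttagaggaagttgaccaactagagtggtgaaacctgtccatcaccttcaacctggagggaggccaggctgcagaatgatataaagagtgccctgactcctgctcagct
SPRR2B: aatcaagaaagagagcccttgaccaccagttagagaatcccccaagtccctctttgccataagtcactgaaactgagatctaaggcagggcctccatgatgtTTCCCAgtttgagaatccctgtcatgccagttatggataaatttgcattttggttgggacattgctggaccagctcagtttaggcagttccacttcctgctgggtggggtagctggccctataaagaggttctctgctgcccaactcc
SBSN: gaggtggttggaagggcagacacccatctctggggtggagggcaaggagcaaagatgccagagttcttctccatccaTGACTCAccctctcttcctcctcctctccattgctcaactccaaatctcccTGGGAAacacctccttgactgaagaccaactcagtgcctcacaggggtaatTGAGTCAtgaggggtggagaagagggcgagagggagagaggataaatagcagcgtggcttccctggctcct
SPRR1A: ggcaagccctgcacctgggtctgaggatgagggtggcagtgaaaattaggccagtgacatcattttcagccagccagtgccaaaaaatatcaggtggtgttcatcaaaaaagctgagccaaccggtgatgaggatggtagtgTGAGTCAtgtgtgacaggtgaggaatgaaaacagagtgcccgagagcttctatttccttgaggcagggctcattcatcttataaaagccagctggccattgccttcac
SPRR1B: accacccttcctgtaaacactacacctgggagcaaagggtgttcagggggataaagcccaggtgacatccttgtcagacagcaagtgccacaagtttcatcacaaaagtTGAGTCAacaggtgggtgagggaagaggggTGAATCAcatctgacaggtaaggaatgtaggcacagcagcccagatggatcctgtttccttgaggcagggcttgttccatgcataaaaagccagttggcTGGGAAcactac
SPRR3: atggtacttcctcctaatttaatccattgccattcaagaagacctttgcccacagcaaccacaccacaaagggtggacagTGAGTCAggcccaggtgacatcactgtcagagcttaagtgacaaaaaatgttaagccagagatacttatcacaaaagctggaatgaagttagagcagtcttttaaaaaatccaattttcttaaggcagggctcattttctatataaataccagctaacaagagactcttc
The windows are chr1:152908296-152908545 (plus strand) for IVL, chr1:153071612-153071861 (minus) for SPRR2B, chr19:35528312-35528561 (minus) for SBSN, chr1:152983831-152984080 (plus) for SPRR1A, chr1:153030953-153031202 (plus) for SPRR1B and chr1:153001499-153001748 (plus) for SPRR3. IVL held the RBPJ letters from base -168 and the AP-1 letters from base -123, counted from the start. SPRR2B held the RBPJ letters, on the opposite strand, from base -148 and no AP-1 letters. SBSN held both, the AP-1 letters at 2 places. SPRR1A and SPRR3 held only AP-1 letters, from bases -108 and -170, and SPRR1B held AP-1 letters from bases -141 and -111 and RBPJ letters from base -12. The capitals do not overlap in these 6 windows. A promoter entry was found for 33 of the 40 genes. Of those 33, 11 held the RBPJ letters and 12 the AP-1 letters, against 21.1% and 6.6% of 27305 human promoter windows of the same length. The RBPJ letters were held by 5 of the 9 with an entry that rose with NICD, 1 of the 4 that fell and 5 of the 20 not called. The AP-1 letters were held by 3 of 9, 3 of 4 and 6 of 20 in the same order, and 5 of the 9 genes that fell have no entry. A match is a description of these letters and not a bound site, and binding was not measured.

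The 12 arrays had median log2 signals of 5.64 to 5.697, and precision is limited by how many arrays there are. NOTCH1, the introduced gene, has 2 probe sets. The dimmer one averaged 6.54 in vector cells, 9.16 in full-length cells, 8.74 in L1601P+ΔP cells and 8.79 in NICD cells, and group means of the other were 9.44 to 9.72. The brighter one differed from vector by 0.08 in full-length and 0.06 in L1601P+ΔP cells, neither called. With NICD it differed by 0.28 (limma adjusted p = 0.00882 over all probe sets). The dimmer one was higher than vector in every construct group, which by itself does not show which construct a group received. Of the basal markers tested, KRT5 (13.33) and KRT14 (13.33) were bright with vector, as was CDH1, the epithelial cadherin (11.95). Among markers of epidermal upper layers, KRT10 stood at 12.03 and LORICRIN, the main late envelope protein, at 5.09. The mean over 5 such markers ranged from 5.77 to 5.91 on the vector arrays and 5.94 to 6.07 on the full-length arrays. It ranged from 6.14 to 6.28 on the L1601P+ΔP arrays and 6.13 to 6.28 on the NICD arrays. Of these 5, KRT1, KRT10 and DSG1 were called higher with NICD. LORICRIN (5.12 with NICD) and DSC1 (3.26 with vector and 3.28 with NICD) were not called. The mean over 6 of 9 basal markers lay between 11.90 and 11.99 with vector and between 11.48 and 11.58 with NICD, where EGFR, ITGA6 and ITGB4 fell and KRT5 and KRT14 rose. The mean over 6 luminal mammary markers lay between 7.99 and 8.11 with vector and 7.77 and 7.91 with NICD. Among those, FOXA1, GATA3 and KRT18 fell with NICD and KRT8 rose. Of 6 fibroblast markers 1 (DCN) rose with NICD, and of 9 melanocyte, endothelial and blood markers limma called 0 (at an unadjusted p under 0.05, 2 up and 0 down). The 3′ minus 5′ signal of the ACTB controls, which reflects how intact the RNA was, came to 0.35 to 0.44 on the NICD arrays and 0.24 to 0.34 on the vector arrays. For the GAPDH controls the same difference averaged -0.04 on the NICD arrays and -0.01 on the vector arrays. In RNA from whole cultures, fewer cells of a type and less RNA per cell cannot be told apart, and the part of these values in the results below was not tested.

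With NICD the genes of the envelope went in both directions. Setting NICD cells beside vector cells addresses the effect of constitutively active Notch1. Of the 40 genes, 19 were called (adjusted p under 0.05 over all genes tested): 10 rose and 9 fell. The called share of all genes tested was 27.6%, with 9.54% higher and 18.1% lower. After cyclic loess scaling 51.6% of all called genes were higher, against 34.6% as deposited, while the members stood at 11 higher and 8 lower. For 19 members the NICD and vector arrays were fully separated, 10 higher and 9 lower, against 39.1% of all genes (14.5% higher and 24.6% lower). The median log2 difference of the 40 was 0.01 (all genes, -0.02), while the median of their absolute differences was 0.23 (all genes, 0.12). Involucrin, a SPRR2 gene and the transcription factor ZNF750 stood at the upper end, and the linker and cross-linking genes PPL and TGM1 at the lower. Values below are log2 signals per array in replicate order, and differences are log2 ± standard error of the fit with n = 3 arrays per group.

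**Figure D1:**
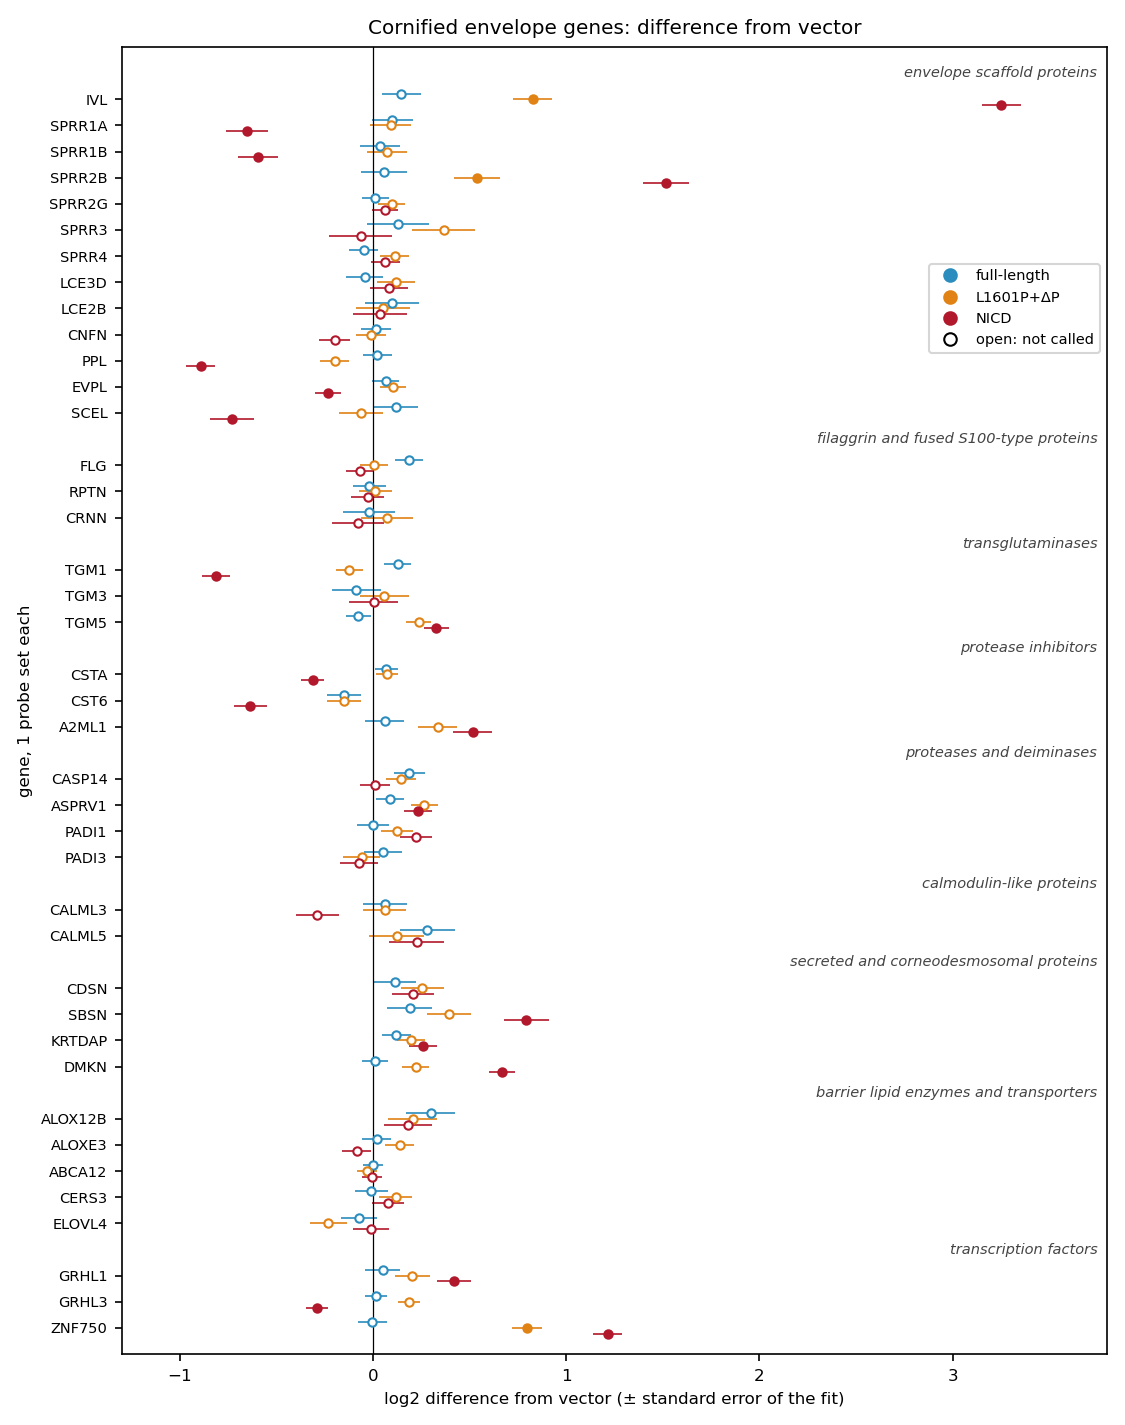
Log2 difference from vector (x axis, ± standard error of the fit) for each of the 40 genes (y axis, grouped by role) in full-length, L1601P+ΔP and NICD cells. Filled points were called; with NICD, 10 filled points lie right of 0 and 9 left of it, with Notch1 L1601P+ΔP 3 lie right, and with full-length NOTCH1 none is filled.

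Among the 13 envelope scaffold proteins, 2 rose and 5 fell with NICD (15.4% and 38.5%, against 9.54% and 18.1% of all genes). IVL, involucrin, the early scaffold on which other precursors are cross-linked, read 6.46, 6.79 and 6.60 with vector and 9.77, 10.07 and 9.76 with NICD. Every NICD array lay above every vector array, and the rise of 3.25 ± 0.10 was 9.54-fold (adjusted p = 1.04e-10). SPRR2B, a small proline-rich cross-bridging protein, read 8.90, 8.85 and 8.61 with vector and 10.38, 10.47 and 10.06 with NICD. It rose by 1.52 ± 0.12, or 2.86-fold (adjusted p = 7.95e-07), again with no overlap. Its probe set carries the x suffix, Affymetrix's mark for probes that also match other transcripts, so closely related SPRR2 genes may share this signal. On probe sets annotated with their symbol alone, SPRR2G differed by 0.06, not called, and the dim SPRR2C by 0.31 (limma adjusted p = 0.0157 over all probe sets). Whether those probes match other SPRR2 transcripts was not tested. SPRR2A, SPRR2D, SPRR2E and SPRR2F were not analysed here.

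The 5 scaffold genes that fell included both SPRR1 genes. SPRR1A read 11.34, 11.36 and 11.17 with vector and 10.55, 10.83 and 10.54 with NICD, a fall of 0.65 ± 0.11 (adjusted p = 0.000475). SPRR1B read 12.30, 12.38 and 12.13 with vector and 11.64, 11.82 and 11.57 with NICD, a fall of 0.60 ± 0.10 (adjusted p = 0.000732). The NICD arrays lay below all vector arrays for both. The SPRR1A probe set also carries the x suffix, so how far the pair was read separately is uncertain.

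PPL, periplakin, a plakin that ties keratin filaments to the envelope, showed the deepest fall of the 40 with NICD on the probe sets used. It read 9.88 on each of the 3 vector arrays and 8.84, 9.16 and 8.95 with NICD, a fall of 0.89 ± 0.07, or 1.86-fold (adjusted p = 1.32e-06). SCEL, sciellin, another envelope precursor, read 8.89, 9.08 and 8.80 with vector and 7.96, 8.38 and 8.23 with NICD, a fall of 0.73 ± 0.11 (adjusted p = 0.000324). EVPL, envoplakin, the partner of periplakin, fell by 0.23 ± 0.07 (adjusted p = 0.0235). The EVPL call was lost after cyclic loess and without vector replicate 3 or any 1 of the NICD replicates, reaching an adjusted p of 0.10. The other 6 scaffold genes were not called. SPRR2G, SPRR3, SPRR4, LCE3D and LCE2B differed by -0.06 to 0.08 and CNFN, cornifelin, by -0.20 (adjusted p = 0.081).

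**Figure D2:**
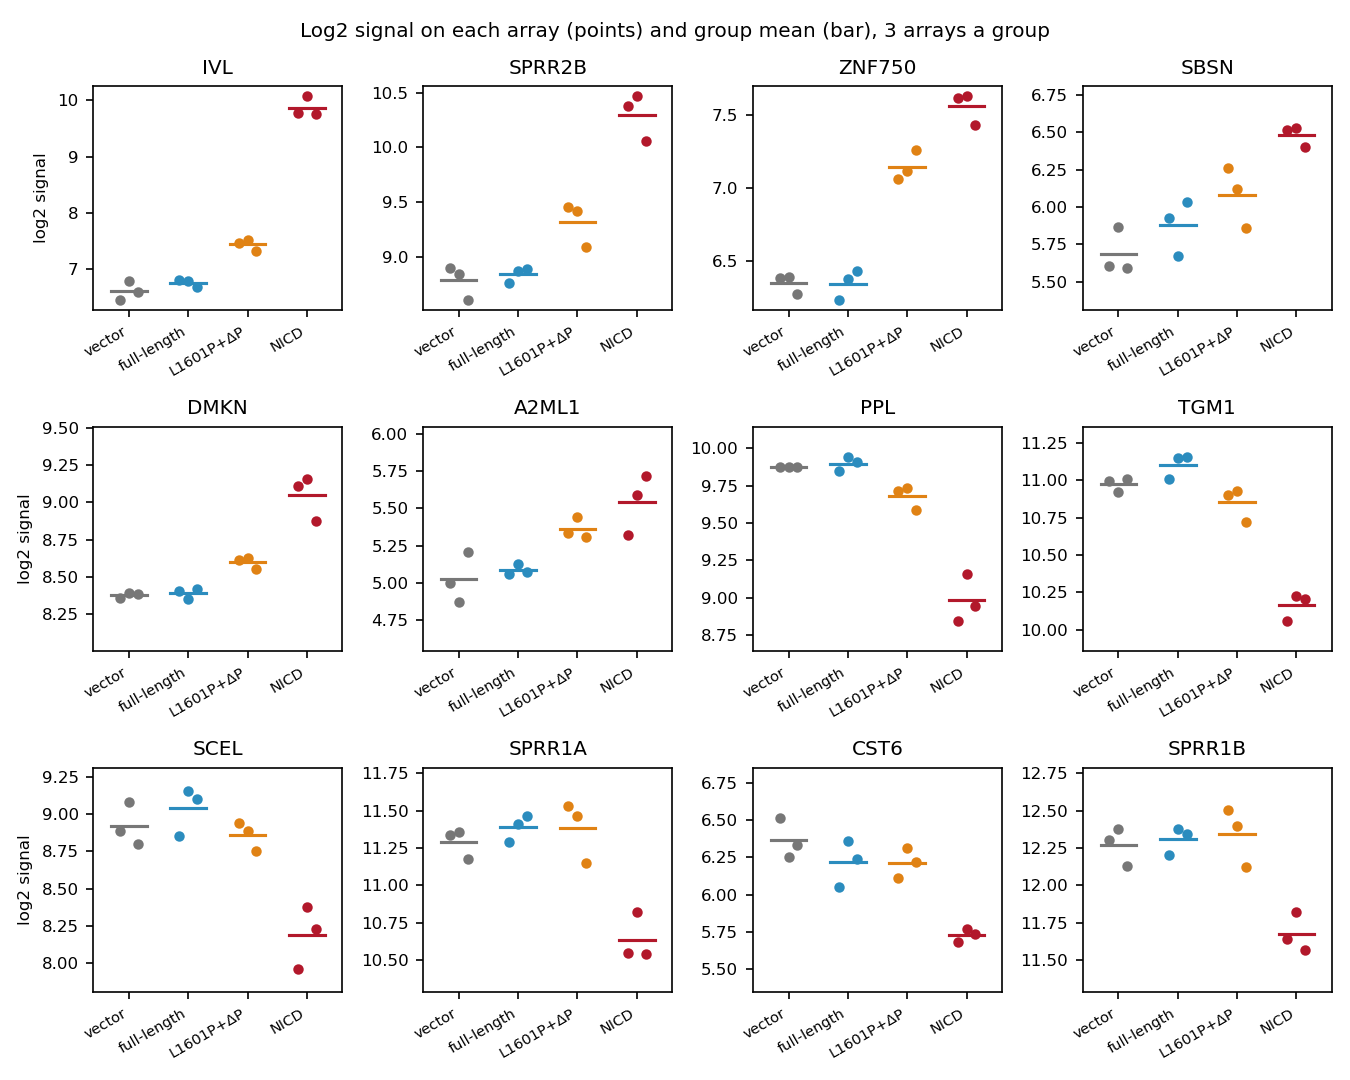
Log2 signal on each array (points, y axis) and group mean (bar) for the 12 members called with NICD at a difference of at least 0.5, in the 4 groups (x axis). IVL, SPRR2B, ZNF750, SBSN, DMKN and A2ML1 are higher with NICD and PPL, TGM1, SCEL, SPRR1A, CST6 and SPRR1B lower, with no overlap with the vector arrays in any of the 12 panels.

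The transglutaminases went in both directions. TGM1, the membrane-bound enzyme that cross-links the envelope and is mutated in lamellar ichthyosis, read 10.99, 10.92 and 11.01 with vector and 10.06, 10.23 and 10.20 with NICD. Its fall of 0.81 ± 0.07 was 1.76-fold (adjusted p = 2.01e-06), and the groups did not overlap. TGM5, another epidermal transglutaminase, read 6.58, 6.66 and 6.41 with vector and 6.89, 6.80 and 6.94 with NICD, a rise of 0.33 ± 0.07 (adjusted p = 0.00228). TGM3, which acts in hair follicle and upper epidermis, was near 4.4 in both groups and was not called.

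All 3 protease inhibitors were called with NICD, 2 lower and 1 higher, where 27.6% of all genes were called. CST6, cystatin M/E, an inhibitor of cathepsins that controls TGM3 processing, read 6.51, 6.25 and 6.33 with vector and 5.68, 5.77 and 5.74 with NICD. It fell by 0.64 ± 0.09 (adjusted p = 0.00012). CSTA, cystatin A, which is itself built into the envelope, read 13.56, 13.58 and 13.46 with vector and 13.21, 13.32 and 13.13 with NICD. It fell by 0.31 ± 0.06 (adjusted p = 0.00118). A2ML1, a broad protease inhibitor of the alpha-2-macroglobulin type, read between 4.87 and 5.21 with vector and 5.33, 5.59 and 5.72 with NICD, a rise of 0.52 ± 0.10 (adjusted p = 0.00169).

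Of the 4 secreted and corneodesmosomal genes, 3 rose with NICD, where 9.54% of all genes rose. SBSN, suprabasin, a secreted protein of the upper epidermis, read 5.61, 5.86 and 5.59 with vector and 6.52, 6.53 and 6.40 with NICD. The rise was 0.79 ± 0.12 (adjusted p = 0.00019). DMKN, dermokine, read 8.36, 8.39 and 8.39 with vector and 9.11, 9.16 and 8.88 with NICD, a rise of 0.67 ± 0.07 (adjusted p = 8.22e-06). Every NICD array of both genes lay above all vector arrays. KRTDAP, keratinocyte differentiation-associated protein, rose by 0.26 ± 0.07 (adjusted p = 0.0198), a call lost with an intensity trend, in a fit of only the 6 arrays compared, and without vector replicate 1 or 3 or NICD replicate 1, reaching an adjusted p of 0.09. SBSN, DMKN and KRTDAP are neighbours on chromosome 19. CDSN, corneodesmosin, which holds the outermost cells together, differed by 0.21 (adjusted p = 0.203).

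All 3 transcription factors were called with NICD, where 27.6% of all genes were called. ZNF750, a zinc finger factor required for terminal epidermal differentiation, read 6.38, 6.39 and 6.27 with vector and 7.62, 7.63 and 7.43 with NICD. It rose by 1.21 ± 0.08, or 2.32-fold (adjusted p = 8.78e-08). GRHL1, a grainyhead-like factor that acts on desmosomal genes, read 7.45, 7.38 and 7.23 with vector and 7.64, 7.83 and 7.85 with NICD, a rise of 0.42 ± 0.09 (adjusted p = 0.0034). GRHL3, the grainyhead-like factor known for barrier formation and for the TGM1 gene, went the other way. It read 8.91, 8.79 and 8.86 with vector and 8.60, 8.61 and 8.48 with NICD, a fall of 0.29 ± 0.06 (adjusted p = 0.00213), with no overlap between the groups.

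The final-stage and lipid genes came in sets too small to tell their called share from the 27.6% of all genes. Of the 3 filaggrin and fused S100-type genes, none was called with NICD by limma (0 of 3 also at an unadjusted p under 0.05), and FLG, filaggrin, which bundles keratin, and RPTN, repetin, lay near 3 on the log2 scale, toward the lower end of the arrays' values. Of the 5 barrier lipid genes (the lipoxygenases ALOX12B and ALOXE3, the lipid transporter ABCA12, the ceramide synthase CERS3 and the fatty acid elongase ELOVL4), none was called by limma (0 of 5 also at an unadjusted p under 0.05). ABCA12 differed by -0.01, at 9.95, 9.95 and 9.88 with vector and 9.94, 9.92 and 9.90 with NICD. Among 4 proteases and deiminases, only ASPRV1, a retroviral-like protease that processes filaggrin, was called, at 0.23 ± 0.07 (adjusted p = 0.0304). That call was lost with an intensity trend, in a fit of only the 6 arrays compared, and without vector replicate 3 or NICD replicate 1, reaching an adjusted p of 0.129. CASP14, PADI1, PADI3 and the calmodulin-like CALML3 and CALML5 were not called. PADI1 differed by 0.22 (limma adjusted p = 0.0663) and was called under 4 of 19 alternatives. CALML3 differed by -0.29 (limma adjusted p = 0.078) and was called under 2. In all, 8 of the 40 genes had a mean under 5 over the 12 arrays. Of those 8, 1 (KRTDAP) was called with NICD, or 12.5%, against 27.6% of all genes. The values carry no detection call, so a gene at such a level was not shown to be off.

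Along the epidermal differentiation complex on chromosome 1, genes called in either direction lay among genes not called or not analysed here. Of 40 protein-coding RefSeq genes from RPTN to SPRR2G, 18 were tested, 12 of them members, and with NICD 2 of the 18 rose and 3 fell, so that the share called was close to the 27.6% of all genes. In the order of the tested genes, IVL rose, SPRR4 was not called (0.06), SPRR1A fell, SPRR3 was not called (-0.06), SPRR1B fell and SPRR2B rose. SPRR5 lies between IVL and SPRR4, and SPRR2D and SPRR2A between SPRR1B and SPRR2B, and these were not analysed here. The genes on the RPTN side of IVL differed by -0.55 to 0.27, and of those LCE1B, a late envelope gene that is not among the 40, was the one called (-0.55 ± 0.10, adjusted p = 0.000849).

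**Figure D3:**
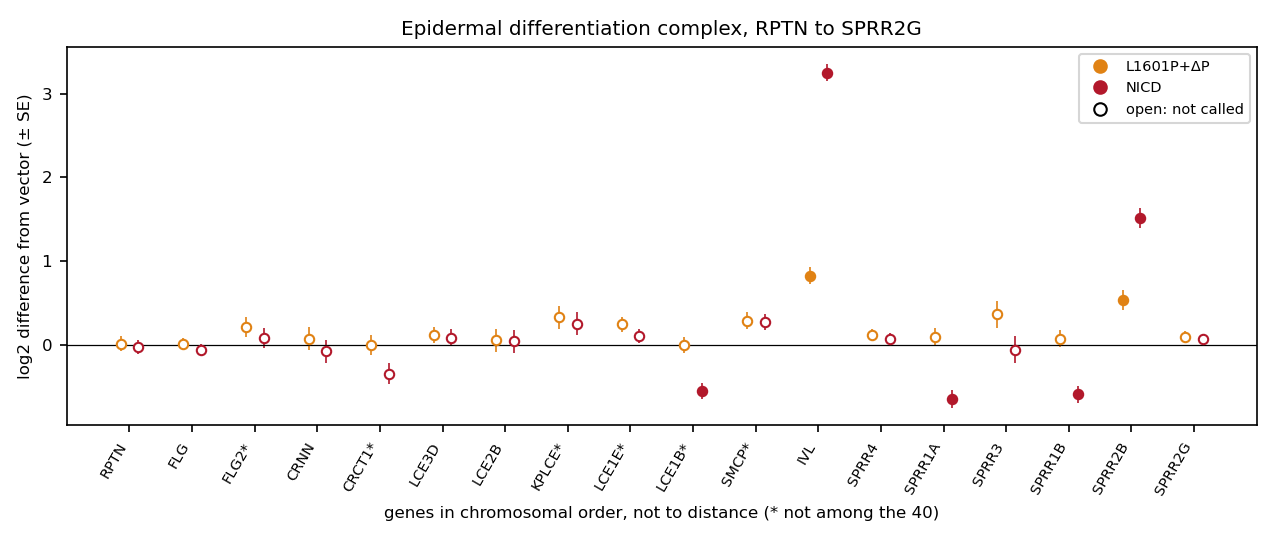
Log2 difference from vector (y axis, ± standard error) with Notch1 L1601P+ΔP and NICD for the 18 tested genes of the epidermal differentiation complex in chromosomal order (x axis, not to distance). Filled points were called; IVL and SPRR2B lie above 0 with both constructs, and SPRR1A, SPRR1B and LCE1B lie below 0 with NICD.

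Cells with Notch1 L1601P+ΔP were set beside vector cells for the effect of the mutant receptor. Of the 40 genes, 3 rose and 0 fell. The called share of 7.5% was close to the 5.12% of all genes (2.16% higher and 2.95% lower). With no adjustment, 13 members were higher and 2 lower at a limma p under 0.05. Arrays did not overlap for 15 members, 13 higher and 2 lower, where 28.5% of all genes did not overlap (10.9% higher and 17.6% lower). The median difference of the 40 was 0.11 and that of all genes -0.01. The 3 called genes were IVL, ZNF750 and SPRR2B.

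IVL read 7.47, 7.53 and 7.32 with Notch1 L1601P+ΔP, above all vector arrays and below all NICD arrays, a rise of 0.83 ± 0.10 or 1.77-fold (adjusted p = 0.000355). ZNF750 read 7.06, 7.11 and 7.26, a rise of 0.80 ± 0.08 or 1.74-fold (adjusted p = 4.78e-05). SPRR2B read 9.45, 9.42 and 9.09, a rise of 0.54 ± 0.12 or 1.45-fold (adjusted p = 0.0227). All 3 lay between vector and NICD without overlap with either. The SPRR2B call was lost without vector replicate 3 or Notch1 L1601P+ΔP replicate 1 or 2, reaching an adjusted p of 0.0952, and 5 members were called without NICD replicate 1. With a changed scaling (cyclic loess) 6 members were called, TGM5, DMKN and GRHL3 in addition, and the share of all called genes that were higher went from 42.3% to 58.4%.

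The genes that fell with NICD did not show a called fall here. PPL read 9.72, 9.73 and 9.59, below all vector arrays, at a difference of -0.20 ± 0.07 that was not called (adjusted p = 0.151). TGM1 differed by -0.12 (adjusted p = 0.342), SCEL by -0.06 (adjusted p = 0.796), SPRR1A by 0.09 and SPRR1B by 0.07. SBSN read 6.26, 6.12 and 5.86 (0.39 ± 0.12, adjusted p = 0.0753) and DMKN 8.61, 8.63 and 8.56 (0.22 ± 0.07, adjusted p = 0.0879), neither called.

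For the intact receptor, full-length NOTCH1, limma called 0 members against vector (with no adjustment, FLG, CASP14 and ALOX12B were higher at p under 0.05 and 0 were lower). Of all genes 0.0354% were called, 0.0303% higher and 0.00506% lower, and each of the 19 alternatives gave 0 members too. Arrays did not overlap for 1 member, CASP14 (higher), against 11% of all genes (4.59% higher and 6.42% lower). IVL read 6.82, 6.78 and 6.68, which overlaps the vector arrays (0.14 ± 0.10, adjusted p = 0.983). SPRR2B differed by 0.06 and ZNF750 by -0.004 (adjusted p = 0.996 and 0.999).

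The constructs were also compared with each other, which asks whether their effects differ. NICD against Notch1 L1601P+ΔP called 15 members, 5 higher and 10 lower, against 19.8% of all genes, 8.73% higher and 11.1% lower. Arrays did not overlap for 18 members, 6 higher and 12 lower, against 34.2% of all genes (13.8% higher and 20.4% lower). After cyclic loess 53.1% of all called genes were higher, against 44% as deposited, with 5 members higher and 9 lower. IVL was higher by 2.43 ± 0.10 with NICD (adjusted p = 3.4e-09), SPRR2B by 0.98 ± 0.12 (adjusted p = 7.14e-05), DMKN by 0.45 ± 0.07, ZNF750 by 0.42 ± 0.08 and SBSN by 0.40 ± 0.12. The SBSN call (adjusted p = 0.0276) was lost without Notch1 L1601P+ΔP replicate 2 or 3 or NICD replicate 1 or 2. Of the lower genes, SPRR1A differed by -0.74, PPL and TGM1 by -0.69, SCEL and SPRR1B by -0.67, CST6 and GRHL3 by -0.48, CSTA by -0.38, EVPL by -0.34 and CALML3 by -0.35. The CALML3 call (adjusted p = 0.0463) was lost under 13 of 19 alternatives. Among them were leaving out any vector or Notch1 L1601P+ΔP array, full-length replicate 3 or NICD replicate 2 or 3. On its other probe set CALML3 differed by 0.11, not called.

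Notch1 L1601P+ΔP against full-length NOTCH1 called 4 members, all higher, against 3.72% of all genes (1.86% higher and 1.86% lower). After cyclic loess 62.5% of all called genes were higher, against 50.1% as deposited, and 6 members were called, all higher. Arrays did not overlap for 12 members, 9 higher and 3 lower, against 27.2% of all genes (11% higher and 16.2% lower). ZNF750 was higher by 0.80 ± 0.08 (adjusted p = 5.83e-05), IVL by 0.68 ± 0.10 (adjusted p = 0.00206), TGM5 by 0.31 ± 0.07 (adjusted p = 0.0211) and SPRR2B by 0.48 ± 0.12 (adjusted p = 0.0483). The TGM5 call was lost without any array of either group. The SPRR2B call was lost under 10 of 19 alternatives, among them without vector replicate 1 or 2, NICD replicate 1, any full-length array or Notch1 L1601P+ΔP replicate 1 or 2. The count was 2 without any full-length array or Notch1 L1601P+ΔP replicate 1 or 2. NICD against full-length NOTCH1 called 19 members, 8 higher and 11 lower, against 27% of all genes (10.1% higher and 17% lower). After cyclic loess 52.9% of all called genes were higher, against 37.3%, with 9 members higher and 10 lower. Arrays did not overlap for 21 members, 10 higher and 11 lower, against 39.5% of all genes (15.3% higher and 24.2% lower). TGM1 differed by -0.94 ± 0.07 (adjusted p = 5.26e-07) and PPL by -0.91 ± 0.07 (adjusted p = 1.12e-06). Of 2 genes not called between NICD and vector, FLG differed by -0.25 (adjusted p = 0.021) and CALML3 by -0.35 (adjusted p = 0.0361). The FLG call was lost in a fit of only the 6 arrays compared and without full-length replicate 2 or 3 or NICD replicate 1 or 2. The CALML3 call was lost under 7 of 19 alternatives. They were cyclic loess, the mean over all probe sets and the fit of only the 6 arrays compared, and leaving out full-length replicate 1 or 3 or NICD replicate 2 or 3. On its other probe set CALML3 differed by -0.02, not called.

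Several probe sets were present for 11 of the 40 genes. For SCEL, SPRR1A and GRHL1 the call with NICD was made on more than 1 of them, and for A2ML1, CST6 and SPRR3 the probe sets differed in their call. Adjusted p-values in this paragraph are over all probe sets. SCEL fell with NICD on 3 of its 4 probe sets, by 0.53 to 0.73, and the remaining one lay near 2.5 in every group. Both SPRR1A probe sets fell (-0.65 and -0.81) and both GRHL1 probe sets rose (0.42 and 0.34, adjusted p = 0.00577 and 0.0462). CST6 fell on the brighter probe set (-0.64), while the dimmer one differed by 0.09 (adjusted p = 0.613). A2ML1 likewise rose on the brighter one (0.52), the other differing by 0.13 (adjusted p = 0.292). No probe set of ALOXE3, CALML3, CDSN, CERS3 or PADI1 was called with NICD.

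SPRR3, a small proline-rich protein of stratified epithelia that line the mouth and oesophagus, was read differently by its 2 probe sets. The one used by the rule, with the x suffix, read 7.90, 7.99 and 7.65 with vector and 7.61, 8.18 and 7.56 with NICD, which overlap (-0.06 ± 0.16, adjusted p = 0.849). The other read 7.72, 7.86 and 7.39 with vector and 8.22, 8.54 and 8.39 in full-length cells. It read 8.08, 7.87 and 7.29 in L1601P+ΔP cells and 6.55, 6.77 and 6.37 with NICD. On it the NICD arrays lay below all others, with a fall of 1.09 ± 0.18 against vector (adjusted p = 0.000891) and a difference of -1.82 ± 0.18 from full-length NOTCH1 (adjusted p = 1.25e-05). The full-length arrays lay above all vector arrays on it, at 0.72 ± 0.18 (adjusted p = 0.866), which was not called. Whether SPRR3 counts as lower with NICD therefore depended on the probe set. Which of the 2 reads SPRR3 more cleanly was not tested.

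**Figure D4:**
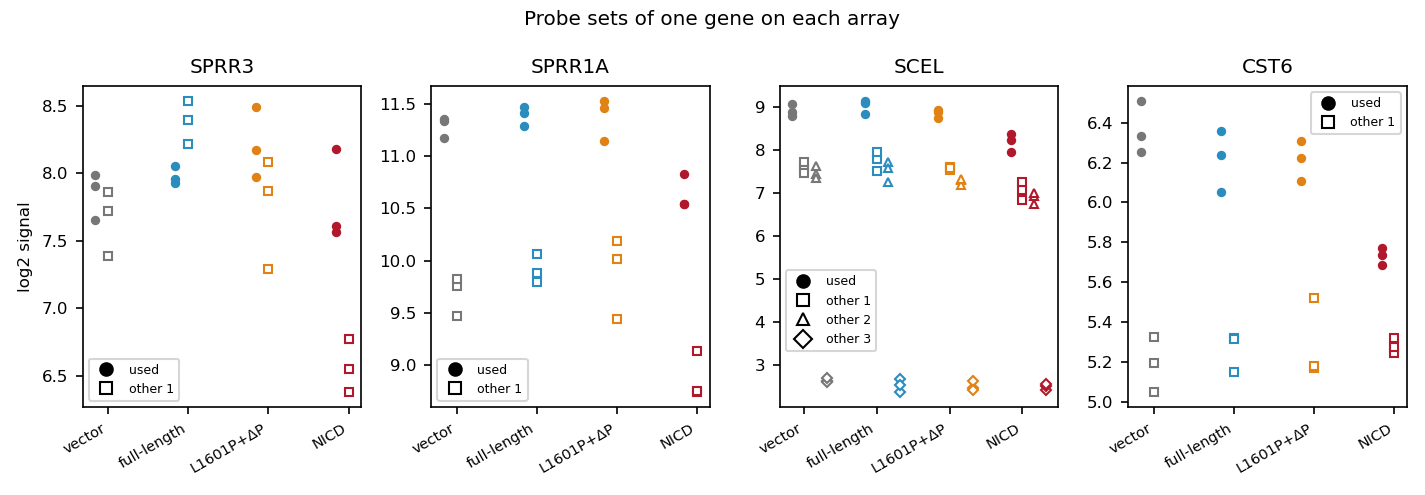
Log2 signal on each array (y axis) of every probe set of SPRR3, SPRR1A, SCEL and CST6 in the 4 groups (x axis); filled circles are the probe set used, open symbols the others. The second SPRR3 probe set lies between 6.37 and 6.77 on the NICD arrays, below the other groups, while the one used overlaps vector.

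Other genes of the pathway, from lists that leave out the 40, were described by their counts. Of all genes tested, 9.54% rose and 18.1% fell with NICD, and 2.16% rose and 2.95% fell with Notch1 L1601P+ΔP, which is the background for each count. Of 11 suprabasal keratins and corneodesmosome genes, 6 rose (54.5%) and 1 fell (9.09%) with NICD (median 0.28), and 3 rose (27.3%) and 0 fell with Notch1 L1601P+ΔP (median 0.22). KRT10, the keratin of the first suprabasal layer, rose from 12.03 ± 0.13 (SD) to 12.72 ± 0.04 with NICD and to 12.69 ± 0.05 with Notch1 L1601P+ΔP (adjusted p = 5.42e-06 and 7.32e-05). Its partner KRT1 rose by 0.55 ± 0.08 and 0.37 ± 0.08, and DSP, desmoplakin, by 0.61 ± 0.06 and 0.29 ± 0.06, in the same order. PKP1, a desmosomal plakophilin, rose by 0.71 with NICD and its relative PKP3 fell by 0.31.

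Of 14 tested envelope and granular-layer genes, out of 36 listed, 4 rose (28.6%) and 2 fell (14.3%) with NICD, where 9.54% and 18.1% of all genes did (median 0.05). SERPINB3, a serpin of squamous epithelium, rose by 2.75 ± 0.10 and TGM2, the ubiquitous transglutaminase, by 1.06 ± 0.11 (adjusted p = 6e-10 and 1.18e-05), while SERPINB13 fell by 0.56 ± 0.07. With Notch1 L1601P+ΔP, SERPINB3 rose by 1.53 ± 0.10 and SERPINB13 by 0.29 ± 0.07 (adjusted p = 0.0412). Of 17 tested barrier lipid and desquamation genes, out of 24, 2 rose (11.8%) and 6 fell (35.3%) with NICD, where 9.54% and 18.1% of all genes did (median -0.04). UGCG, which makes glucosylceramide, rose by 0.97 ± 0.06 and FA2H by 0.45 ± 0.15. ABHD5, the co-activator of a lipase, fell by 0.69 ± 0.06, and the serine proteases PRSS8 and KLK5 fell by 0.54 ± 0.09 and 0.46 ± 0.13.

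Of 18 tested regulators of keratinocyte differentiation, out of 21, 1 rose (5.56%) and 7 fell (38.9%) with NICD, where 9.54% and 18.1% of all genes did (median -0.13). With Notch1 L1601P+ΔP 1 of the 18 was called, lower, a share of 5.56% that is close to the 5.12% of all genes. EHF, an epithelial ETS factor, fell from 11.01 ± 0.08 (SD) to 10.09 ± 0.08 (adjusted p = 1.95e-07). VDR, the vitamin D receptor, fell by 0.65 ± 0.05 with NICD and by 0.36 ± 0.05 with Notch1 L1601P+ΔP (adjusted p = 6.32e-07 and 0.00102). KLF4, a barrier factor, fell by 0.57 ± 0.08 and OVOL2 by 0.56 ± 0.07, while MAF rose by 0.70 ± 0.12. With full-length NOTCH1, limma called 0 genes of these 4 lists (with no adjustment, p was under 0.05 for 3 higher and 0 lower of 14 envelope, 3 and 1 of 11 suprabasal, 1 and 1 of 17 lipid and 0 and 0 of 18 regulator genes).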

How the data were processed

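Messenger RNA was read on 12 Affymetrix arrays with 54675 probe sets each. The authors' deposited log2 signals were used. RMA (background correction, quantile normalization and summary) and limma were named, without versions, per the submitters' processing notes. Quantile normalization hides a shift common to most genes. No scanner file was used here. Genes were named from the platform annotation, where 41091 probe sets carried 1 symbol, and all 40 members matched a RefSeq symbol. limma 3.58.1 in R 4.3.3 was fitted to 1 probe set per gene, with group means only, all 12 arrays in 1 fit and 8 residual degrees of freedom. Tests were two-sided, with Benjamini-Hochberg adjustment over the 19775 genes of each of 6 comparisons, and a gene was called at an adjusted p under 0.05. Per-array values are given for members called with NICD or Notch1 L1601P+ΔP at a log2 difference of at least 0.5, and for some others, chosen after their values were seen; of each other pathway list, the 4 called genes with the largest change in each direction could be named. Marker genes are named as a check of the cells. Some of them, among them KRT1, KRT10 and DSG1, are also in the pathway lists. The mean of the epidermal markers and the counts of the suprabasal list therefore rest partly on the same genes. The members and lists were chosen with earlier results of these data known. The fit was tested on simulated data. Alternatives were another scaling, a filter on dim genes, other probe set rules, fewer arrays, the replicate block and an intensity trend. Same-numbered replicates deviated together in 1 of 18 pairs, so the numbers were not taken to pair samples.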

Additional observations from a re-analysis of the deposited data

Results flagged for a closer look

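For 2 genes the Notch1 L1601P+ΔP arrays all lay above the vector arrays and the NICD arrays all below them. A called difference between the 2 constructs was part of the rule that picked these genes, so it is no added support. GRHL3 differed from vector by 0.19 with Notch1 L1601P+ΔP, which was not called, and by -0.29 with NICD. The difference of NICD from Notch1 L1601P+ΔP was -0.48 ± 0.06 (limma adjusted p = 6.81e-05). CSTA differed by 0.07, not called, and by -0.31 in the same order, and NICD from Notch1 L1601P+ΔP by -0.38 ± 0.06 (limma adjusted p = 0.000386). Its lowest Notch1 L1601P+ΔP array (13.594) lay only just above its highest vector array (13.583).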

How the results depend on the processing

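Under the 19 alternatives, 50 of the 60 called differences of a member in a comparison kept their direction and stayed called, 10 lost the call in at least 1, and none changed sign. Of the 180 not called, 24 were called in at least 1. For Notch1 L1601P+ΔP against vector, 6 members were called after cyclic loess, 5 without genes whose mean is under 5 and 6 with an intensity trend, against 3 in the chosen fit; leaving out 1 array gave 2 to 5. The cause of these changes was not tested. For Notch1 L1601P+ΔP against full-length NOTCH1, leaving out 1 array gave 2 to 5 against 4. The counts of 19 for NICD against vector, 15 against Notch1 L1601P+ΔP and 19 against full-length NOTCH1 stayed within 1.5 times. With the replicate block, 20 members were called for NICD against vector and 3 for Notch1 L1601P+ΔP; no call was lost, and CNFN was called for NICD against vector (-0.20) and full-length NOTCH1 (-0.21) and SPRR3 for NICD against Notch1 L1601P+ΔP (-0.43); the block changed no other call. Same-numbered arrays deviated together with r from -0.12 to 0.16, and 2 of 12 arrays correlated best with their own number. Dim signals near 3 to 5 limit what can be said of FLG, RPTN, LCE2B, TGM3, ALOX12B, CASP14, PADI3 and KRTDAP.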
